A study of Mus musculus with 24 samples.

Results

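The genes described here are 41 genes of the interferon-gamma response and of antigen presentation, taken by their symbols from the 55487 genes of each library's expression table. They comprise 8 genes of MHC class II presentation, 9 of MHC class I presentation, 5 subunits of the immunoproteasome and its activator, the regulators Irf1, Irf8 and Socs1, 12 interferon-inducible GTPases, and Ifng, Ifngr1, Ido1 and Cd274. RNA was sequenced from the colon of untreated C57BL/6 mice, from colon on day 7 and day 13 of colitis induced by DSS (dextran sulfate sodium, given in drinking water to injure the colonic epithelium), and from colorectal tumours of mice given the carcinogen azoxymethane with DSS. Each condition was studied in wild-type mice (WT) and in knockout mice (KO) that lack Axin1 in intestinal epithelial cells, which gave 8 groups of 3 libraries, described as biological replicates. The Axin1 protein holds together the complex through which beta-catenin is degraded. The labels do not name the driver of the deletion, the sex or age of the mice, or the day on which tumours were taken. The knockout is confined to the epithelium by design, while RNA came from whole tissue, so a level can change with the cells present as well as with the RNA per cell, and fewer cells of a type cannot be told apart from less RNA per cell.

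Interferon-gamma is a cytokine of T cells and NK cells. Its response runs through promoter elements that include gamma-activated sites (GAS) and interferon-stimulated response elements (ISRE), the latter bound by factors such as IRF1. The response includes peptide presentation by MHC class I and class II molecules, exchange of proteasome subunits for those of the immunoproteasome, and GTPases that defend cells against intracellular microbes. Class II genes are driven by the transactivator CIITA and are expressed mainly by B cells, dendritic cells and macrophages, but the colonic epithelium also makes them under interferon-gamma.

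Libraries held 15653300 to 28066996 expected counts (median 23642270). Axin1 stood at 13.5 to 19.7 CPM (counts relative to the size of the library, scaled between libraries by TMM) in the 12 KO libraries and at 47.4 to 58.8 CPM in the 12 WT libraries, without overlap. Of markers of the labelled tissue, 7 epithelial genes summed to 4200 CPM or more in every library, and 5 smooth muscle genes summed to 1627 CPM or more in colon and to 92.9 to 211 CPM in tumours. By Xist and the Y-linked gene Ddx3y, all 3 WT libraries of day 7 and all 3 KO libraries of day 13 came from females, all 3 WT libraries of day 13 and all 3 untreated KO libraries from males, and the other groups were mixed. WT day 13 replicate 3, KO day 13 replicate 1 and KO tumour replicate 2 stood apart by squamous keratins (summed markers 4004, 987 and 534 CPM), and untreated KO replicate 3 by 12 type I interferon response genes (2031 CPM, against 123 to 397 CPM in the other untreated libraries). For 22 members the expected count was not whole in over 12 libraries, so reads were shared with other genes. Among them were H2-K1, H2-D1, H2-Q4, H2-T23, H2-DMa, Irf1, Cd274, Tgtp1, Gbp4 with Gbp9 and Igtp with Irgm2, whose levels are therefore uncertain relative to copies or neighbours. For Gbp5 the count was whole in every library, and for Gbp2 in all but 1.

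The members lie in a few clusters of the mouse genome (GRCm38), which bears on how their promoters compare. The MHC region of chromosome 17 holds 15 of them, chromosome 11 holds Igtp, Irgm1, Irgm2, Tgtp1 and Irf1, chromosome 3 holds Gbp2, Gbp3, Gbp5 and Gbp7, and chromosome 5 holds Gbp4, Gbp6 and Gbp9. RefSeq promoter windows (GRCm38.p6, 250 bases before to 50 after the start site) were found for 31 members, with 37 windows. H2-Ab1, Cd74, Ciita, Nlrc5, Tap2, Gbp4, Gbp6, Gbp9, Iigp1 and Ido1 had none. On either strand, the GAS letters TTCNNNGAA occurred in 9 of the 37 member windows (24.3%) and in 8.3% of all 32851 windows. The ISRE core (GAAA, any 2 bases, GAAA) occurred in 12 of 37 (32.4%) against 3.44% of all, and the Y box CCAAT, the site of the factor NF-Y, in 20 of 37 (54.1%) against 37.4%. The GAS and ISRE core overlapped in none of the member windows.

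The promoters of 3 GTPases show the 2 interferon sites side by side, and are printed for that arrangement. In Igtp, Irgm2 and Tgtp1 the ISRE core began 11 bases after the first base of the GAS. That spacing occurred in 5 of all 32851 windows (0.0152%), these 3 genes included. It was taken from these promoters after they were seen, so its rarity is not a separate result. Igtp and Irgm2 share a nearly identical run of bases around both matches, so they are not independent cases. The stretches run from position -100 to -11 before the start site, 5′ to 3′ on the gene's strand, with both matches in capitals. Gbp2 and Gbp5, guanylate-binding proteins of chromosome 3, are shown beside them with the matches in the same stretch, an ISRE core on the other strand and a GAS.
Igtp (chr11:58199456-58199545, plus strand): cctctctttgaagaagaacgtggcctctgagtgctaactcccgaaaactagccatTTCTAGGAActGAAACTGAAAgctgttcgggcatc
Irgm2 (chr11:58214877-58214966, plus strand): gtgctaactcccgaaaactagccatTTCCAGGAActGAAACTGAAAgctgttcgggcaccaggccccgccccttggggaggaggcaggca
Tgtp1 (chr11:48992257-48992346, minus strand): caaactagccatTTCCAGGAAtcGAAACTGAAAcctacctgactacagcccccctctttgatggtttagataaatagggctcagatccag
Gbp2 (chr3:142620563-142620652, plus strand): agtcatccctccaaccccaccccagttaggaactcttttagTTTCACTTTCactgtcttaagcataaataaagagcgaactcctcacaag
Gbp5 (chr3:142496834-142496923, plus strand): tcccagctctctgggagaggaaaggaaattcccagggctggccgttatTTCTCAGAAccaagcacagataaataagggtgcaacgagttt

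Several MHC promoters held a Y box within a narrow window before the start. A CCAAT on either strand began between positions -61 and -48 in H2-Aa, H2-Eb1, H2-DMb1, H2-Ob, H2-D1, H2-Q4, H2-T23 and B2m, 8 members, and in 3.69% of all windows; that range was chosen after the positions were seen. The stretches below run from -80 to -31 with the match in that window in capitals and any other left in lower case, for 3 class II genes and the 2 chains of a class I molecule.
H2-Aa (chr17:34287854-34287903, minus strand): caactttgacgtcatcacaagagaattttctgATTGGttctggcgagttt
H2-Eb1 (chr17:34305787-34305836, plus strand): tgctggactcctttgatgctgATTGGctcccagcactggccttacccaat
H2-DMb1 (chr17:34153111-34153160, plus strand): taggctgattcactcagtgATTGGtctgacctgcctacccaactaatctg
B2m (chr2:122147607-122147656, plus strand): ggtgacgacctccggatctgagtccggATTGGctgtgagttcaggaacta
H2-D1 (chr17:35263014-35263063, plus strand): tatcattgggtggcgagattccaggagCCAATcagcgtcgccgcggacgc

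WT tumour replicate 3 was the highest of the 24 libraries for 29 of the 41 members. WT day 13 replicate 1 held the highest level of 4 more, Irf1, Irf8, Socs1 and Ifng, the cytokine itself. Relative to the mean of untreated WT on the log2(CPM + 0.5) scale, the median over all members ran from 1.02 to 1.80 in WT day 7, from 0.38 to 2.29 in WT day 13 and from 0.61 to 3.01 in WT tumours. In KO the same median ran from 0.30 to 1.16 in untreated colon, from -0.05 to 0.28 at day 7, from 0.19 to 0.56 at day 13 and from 0.69 to 1.87 in tumours. Only the day 7 ranges of the genotypes lay fully apart in the direction of higher WT. Each response below is given against untreated colon of the same genotype and then between genotypes. Counts of calls with single libraries left out come without the share of all genes called, which also changed.

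**Figure D1:**
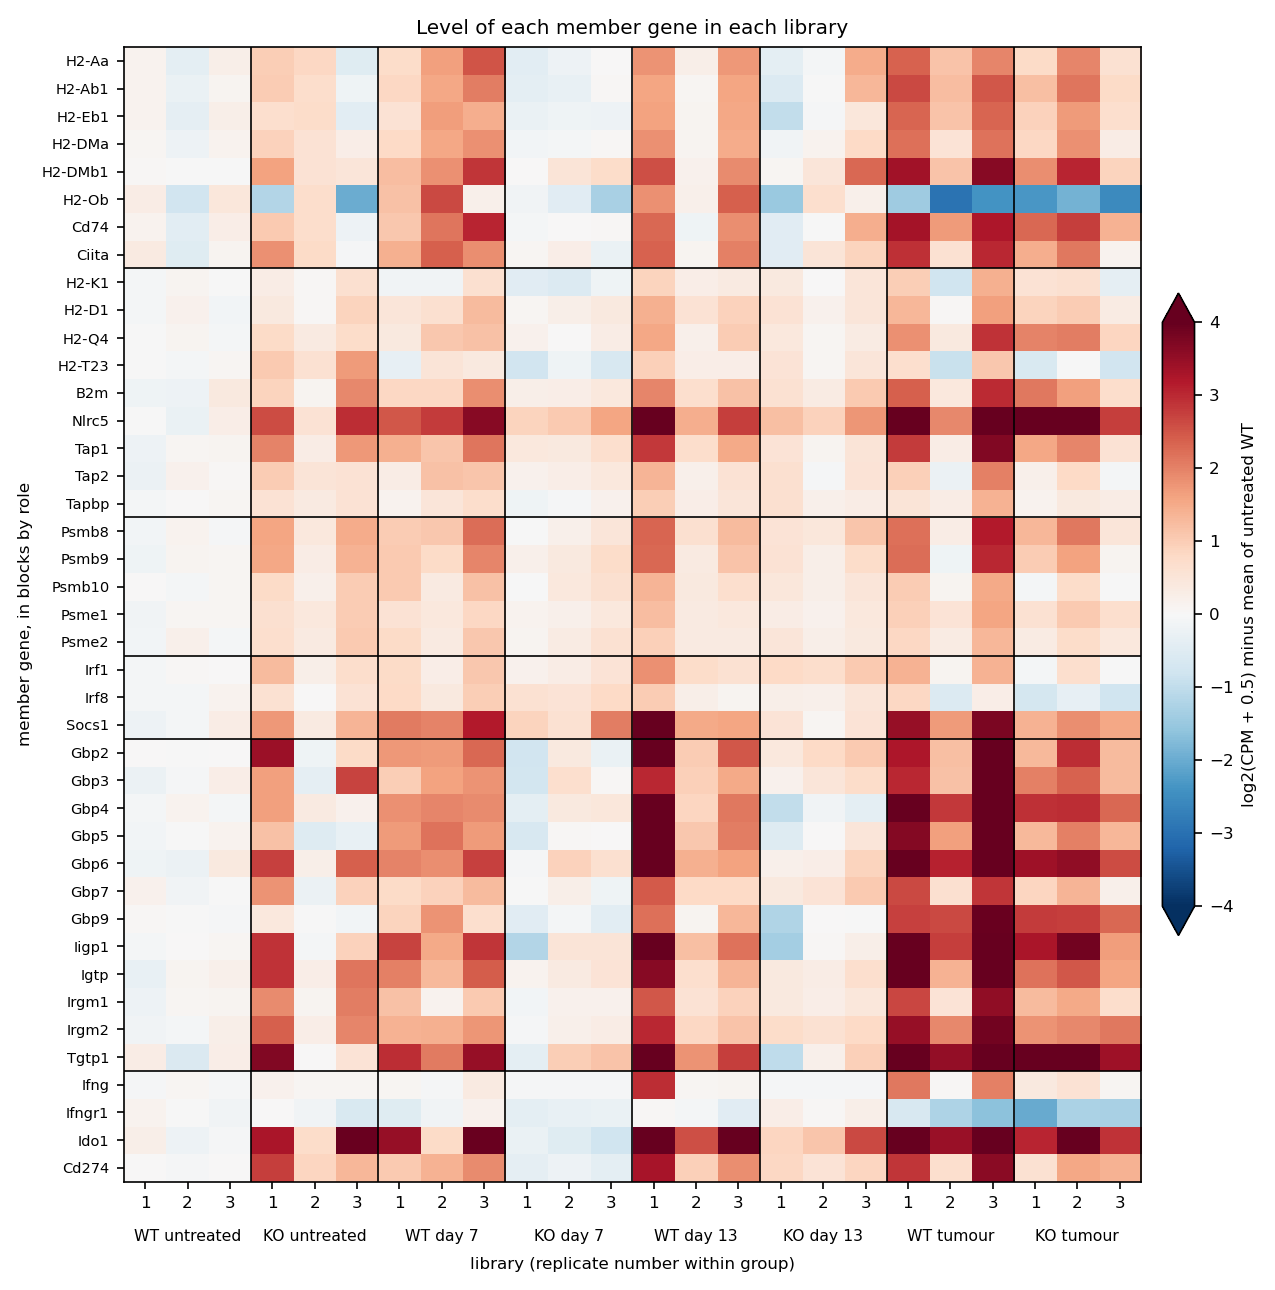
Heat map of the 41 members (rows, in blocks by role) in the 24 libraries (columns, 3 per group); colour gives log2(CPM + 0.5) minus the mean of untreated WT, on a scale that stops at 4 in either direction. WT day 7, WT day 13 replicates 1 and 3 and WT tumours 1 and 3 are mostly red, KO day 7 is near white or blue, and untreated KO libraries 1 and 3 are red in the class I block, with library 1 also red in class II.

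**Figure D2:**
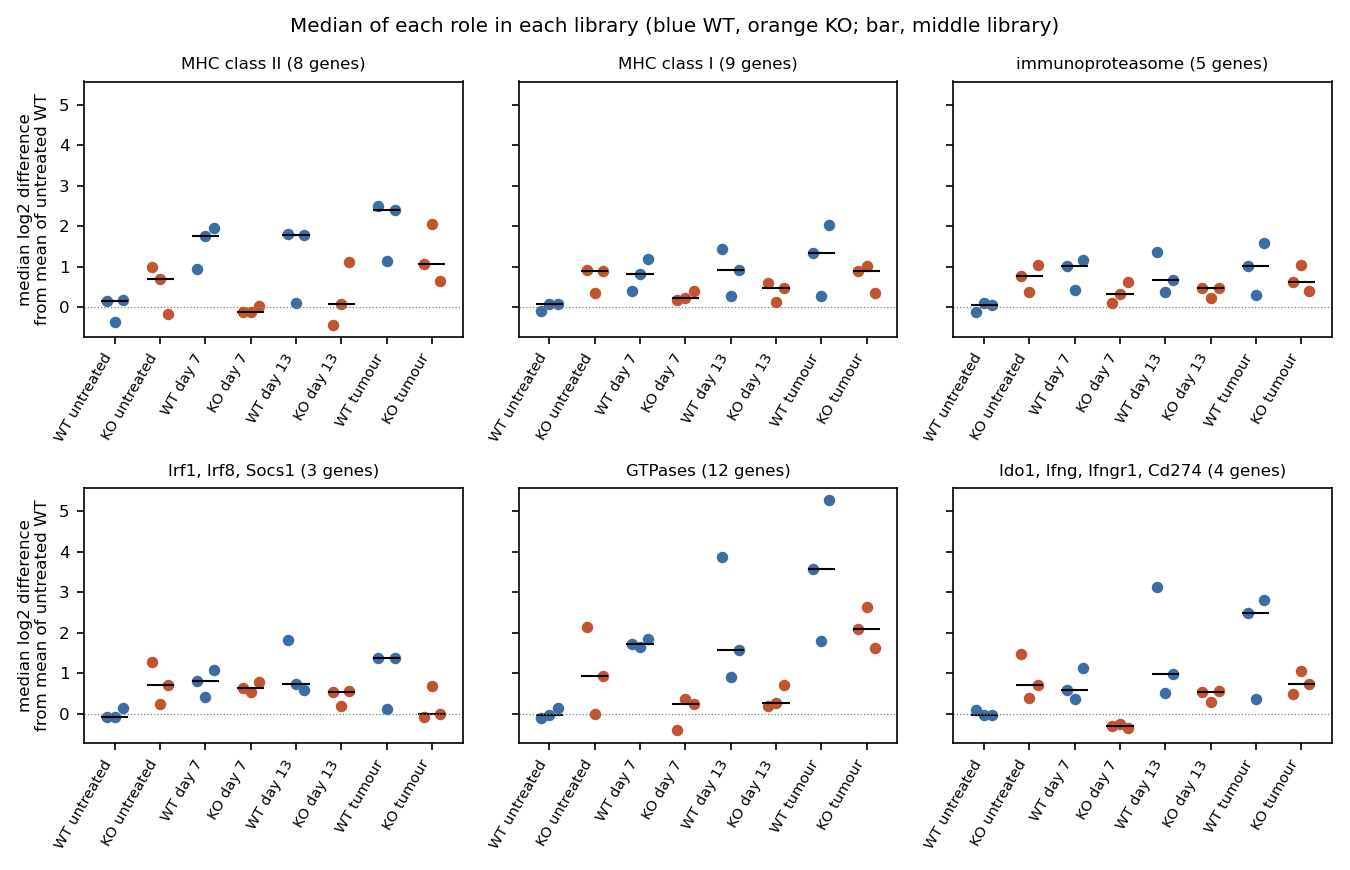
Median log2 difference from the mean of untreated WT over the members of each role, 1 point per library (blue WT, orange KO), with a bar at the middle library of each group. For the GTPases the WT day 7 libraries lie between 1.65 and 1.84 and the KO day 7 libraries between -0.41 and 0.36.

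In WT colon at day 7, 18 of the 40 members tested were higher than in untreated WT and none lower by edgeR's quasi-likelihood test at an adjusted p under 0.05, where 8.52% of all genes were higher. The median change of the members was 1.49 on the log2 scale, against 0.03 for all genes, and 36 of 40 had all 3 libraries above the untreated ones, as did 18.7% of all genes. The calls were spread over the roles: 6 of 8 class II genes, 4 of 9 class I genes, 3 of 5 immunoproteasome genes, 2 of 3 regulators, 2 of 12 GTPases and Ido1. All 12 GTPase estimates were above 0 even so, at a median of 1.92 (1.67 for class II). Of these 12, 10 had an unadjusted p under 0.05 (5927 of all 18102 genes). Smallest in p were Nlrc5, the transactivator of class I genes (3.22 ± 0.71 SE, adjusted p = 0.00833), Socs1, a feedback inhibitor of JAK kinases (2.75 ± 0.69, adjusted p = 0.0165), H2-DMa, a chain of the class II peptide editor (1.45 ± 0.38, adjusted p = 0.0198), and Psmb8 (1.52 ± 0.42, adjusted p = 0.025). Leaving out WT day 7 replicate 1, 2 or 3 gave 14, 11 and 1 calls, of which 12, 10 and 1 were among the 18, and leaving out untreated WT replicate 1, 2 or 3 left 1, 1 and 3 of the 18. Nlrc5 was the call left without WT day 7 replicate 3. Without that library the adjusted p of Socs1, H2-DMa and Psmb8 was 0.053, 0.0639 and 0.112, without untreated replicate 1 it was 0.0726, 0.0654 and 0.0907, without untreated replicate 2 it was 0.0616, 0.0761 and 0.0646, and without untreated replicate 3 that of Psmb8 was 0.0718. With Y-linked expression as a covariate no member was called and the median change was 1.3. The day 7 libraries were all female and 1 of 3 untreated ones was. Of the leukocyte genes Ptprc, Coro1a and Laptm5, 2 of 3 were also called higher, and 8 T cell markers summed to 11.4 to 24.4 CPM against 5.29 to 11.7 CPM untreated. Their part in the result was not tested.

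At day 13, which shares the untreated WT libraries with day 7, 15 of 40 members were higher in WT and none lower, against 3.21% of all genes higher. The median change was 1.56, and 32 of 40 members did not overlap with untreated WT (15.4% of all genes). The GTPases made up 7 of the 15 calls and class II genes none of them, with 4 class I genes, Psmb8, Socs1, Ido1 and Cd274 as the others. All 8 class II estimates were above 0 even so, at a median of 1.47 (2.77 for the GTPases). Of these 8, 7 had an unadjusted p under 0.05 (4048 of all 18102 genes), and their smallest adjusted p was 0.0598. Ido1, the tryptophan-degrading enzyme, changed by 6.25 ± 1.25 (adjusted p = 0.0175), Nlrc5 by 3.57 ± 0.72 (adjusted p = 0.0176), and Gbp4 and Gbp5 by 3.05 ± 0.65 and 3.09 ± 0.67 (adjusted p = 0.0216 and 0.0229). These calls rested on replicate 1: without it none was left and the median change was 0.99, and the estimates of the 4 genes were 4.69, 2.44, 1.72 and 1.76 (adjusted p = 0.0733, 0.0872, 0.117 and 0.129). Without replicate 2, the lowest of the 3, 32 members were called, without replicate 3 there were 10, and without any 1 of the 3 untreated WT libraries none, with adjusted p of 0.0688 to 0.11 for the same 4 genes. The share of all genes called in these fits is not given, so the 32 cannot be set against it. At day 13, 3 of 5 smooth muscle genes were called lower in WT (median -1.25) and T cell markers summed to 8.82 to 27.4 CPM, lowest in replicate 2, and the part of either in the result was not tested.

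In KO colon at day 7 no member was higher than in untreated KO (8.57% of all genes were), and 4 of 40 were lower (4.07% of all genes). The median change was -0.74, and 8 of 40 members lay below all untreated KO libraries (15.9% of all genes). H2-T23, which encodes the nonclassical class I molecule Qa-1, fell by 1.71 ± 0.29 (adjusted p = 0.00141), and it was the call that held under all 15 alternatives. Cd274, which encodes the checkpoint ligand PD-L1, fell by 2.33 ± 0.53 (adjusted p = 0.0107), Ido1 by 4.98 ± 1.28 (adjusted p = 0.0196) and the GTPase gene Irgm2 by 1.64 ± 0.51 (adjusted p = 0.0479). Leaving out untreated KO replicate 1 or 3 or any day 7 library left 2 calls, and leaving out untreated KO replicate 2 gave 10. Cd274 was lost without untreated replicate 1 (adjusted p = 0.0628), Ido1 without untreated replicate 3 (0.0527) or day 7 replicate 1, 2 or 3 (0.0632, 0.0708 and 0.0863), and Irgm2 without any of these 5 (0.0994 to 0.194). By expression the untreated KO mice were all male and 2 of 3 KO mice of day 7 female, and with Y-linked expression as a covariate the adjusted p of Cd274, Ido1 and Irgm2 was 0.0592, 0.0948 and 0.102. Of T cell markers, 2 of 8 were also lower in KO day 7, with a sum of 5.51 to 6.68 CPM against 10.6 to 15.9 CPM untreated, and their part in the result was not tested.

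At day 13 no member differed between treated and untreated KO colon by edgeR, at a median change of -0.46 and with 0.0276% of all genes called. At an unadjusted p under 0.05 there were 10 members of 40 (7.62% of all genes), and DESeq2 called none (0.668% of all genes). The smallest adjusted p was 0.506, for H2-T23.

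The difference between the genotypes' responses was tested directly. At day 7 the response of KO minus that of WT had a median of -2.31 over the members, with 39 of 40 below 0, and no member passed in edgeR (smallest adjusted p = 0.168; 0% of all genes called). At an unadjusted p under 0.05 there were 37 of 40 members (13.7% of all genes), and DESeq2 called 24, each lower (2.01% of all genes). Ido1 had the largest difference, -8.94 ± 1.73, followed in p by Cd274 at -3.83 ± 0.75. At day 13 the median was -1.86, no member passed in edgeR (smallest adjusted p = 0.0735; 0.011% of all genes called), 33 of 40 had an unadjusted p under 0.05 (13.5% of all genes) and DESeq2 called 21, each lower (3.19% of all genes). By expression WT day 13 and untreated KO were all male, KO day 13 was all female and untreated WT was mixed. Sex is therefore partly confounded with the day 13 difference. Leaving out untreated KO replicate 2, the one whose GTPases were near WT, gave 5 calls at day 7 and 12 at day 13. Leaving out untreated KO replicate 3 gave 1 at day 7, and leaving out WT day 13 replicate 2 gave 22 at day 13. For these counts the share of all genes called is not given. Other genes moved in the same contrast: at day 7 the median was -2.40 over 8 T cell markers, -2.21 over 3 leukocyte genes and -3.10 over 12 type I interferon genes, and at day 13 it was -1.76, -2.10 and -3.33. Their part in the result was not tested.

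**Figure D3:**
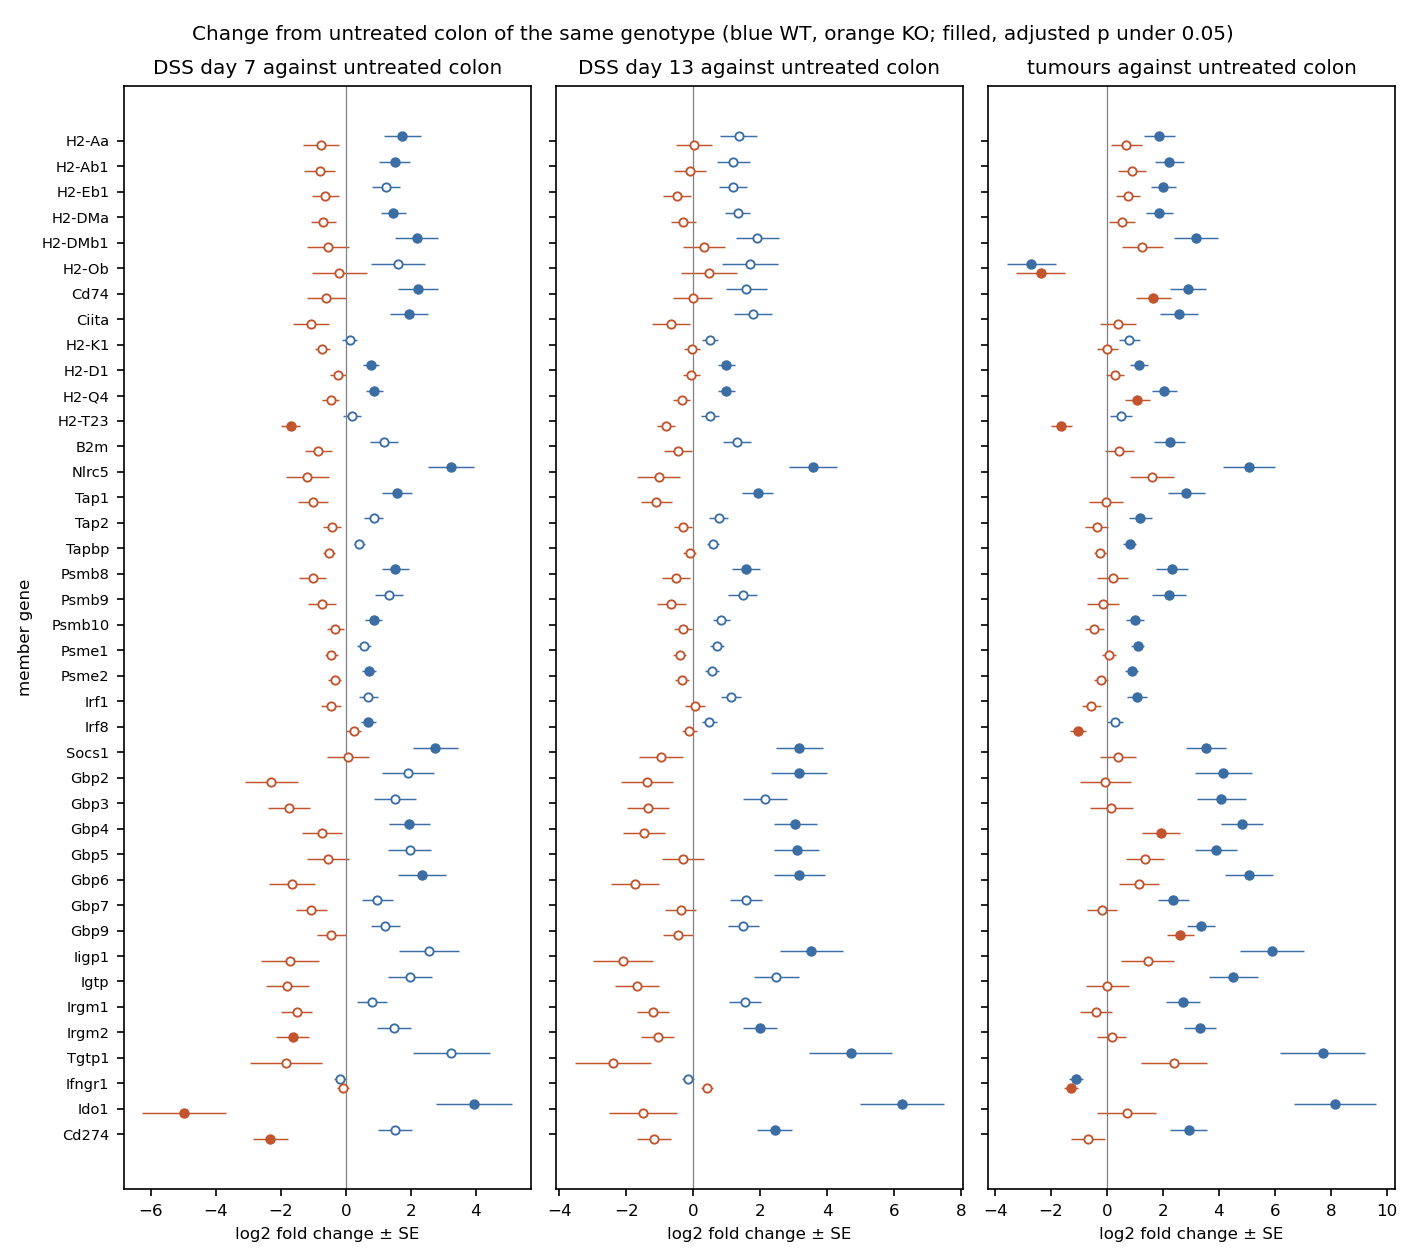
Log2 fold change ± SE of each member except Ifng against untreated colon of the same genotype at day 7, at day 13 and in tumours (blue WT, orange KO); filled points have an adjusted p under 0.05 in edgeR. At day 7 the WT points lie mostly right of 0 and the KO points left of 0.

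Compared within a condition, untreated KO colon stood above untreated WT at a median of 0.98, with no member called by edgeR (smallest adjusted p = 0.487; 0.011% of all genes called). At an unadjusted p under 0.05 there were 24 of 40 members (6.53% of all genes), DESeq2 called 3, each higher (0.359% of all genes), and 20 of 40 did not overlap in the direction of higher KO (9.07% of all genes). The median was 0.52 without untreated KO replicate 1, 1.17 without replicate 2 and 0.86 without replicate 3. The 3 KO libraries differed among themselves in which genes were high. Replicate 1 had Gbp2 at 230.3 CPM, Iigp1 at 34.97 and Tgtp1 at 23.04 CPM, while replicate 3, the library with high type I interferon genes, had 36.1, 8.69 and 2.16 CPM, and replicate 2 had 18.9, 4.08 and 1.31 CPM, near WT. For B2m and Nlrc5 replicate 3 was the highest, at 793 and 22.1 CPM, and its Cd74, at 97.7 CPM, was within the WT range. In the same contrast all 12 type I interferon genes were higher in estimate (median 2.59, 11 at an unadjusted p under 0.05) and all 5 smooth muscle genes lower (median -0.90), and their part in the result was not tested.

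At day 7 every one of the 40 members had a lower estimate in KO than in WT, with a median of -1.39, yet none passed in edgeR (smallest adjusted p = 0.0647, for H2-DMa and Ido1; 0.00552% of all genes called). At an unadjusted p under 0.05 there were 29 of 40 members (27% of all genes), DESeq2 called 17, each lower (13.6% of all genes), and 29 of 40 did not overlap (13.9% of all genes). Leaving out WT day 7 replicate 1 gave 5 calls and leaving out WT day 7 replicate 3 gave 2. Markers of leukocytes moved with this difference: Ptprc, Coro1a and Laptm5 summed to 64.7 to 224 CPM in WT and to 24.9 to 37 CPM in KO, B cell markers to 28.3 to 257 against 8.45 to 36.4 CPM, and macrophage markers to 98.6 to 161 against 46.8 to 70.4 CPM. Their part in the result was not tested.

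At day 13, 3 GTPases passed. Gbp4 fell by 3.59 ± 0.67 in KO relative to WT (adjusted p = 0.0171), Gbp5 by 3.05 ± 0.67 (adjusted p = 0.0279) and Gbp9 by 1.85 ± 0.47 (adjusted p = 0.0491), 3 of 40 members where 1.86% of all genes were lower. The median over members was -1.03, and 13 of 40 did not overlap, all lower in KO (12.3% of all genes). No call was left without WT day 13 replicate 1, where the median was -0.56 and the estimates were -2.25, -1.72 and -1.24, or without KO day 13 replicate 1, 2 or 3, and 1 was left without WT day 13 replicate 3, while leaving out WT day 13 replicate 2 gave 17. Over these 5 libraries the adjusted p ran from 0.0509 to 0.222 except for Gbp4 without WT day 13 replicate 3. The share of all genes called without single libraries is not given. All 3 WT mice were male and all 3 KO mice female by expression, and with Y-linked expression as a covariate no member was called and the estimates were -3.97, -3.54 and -1.93. All 6 macrophage markers were also lower in KO here, summing to 75.6 to 160 CPM in WT and to 25.8 to 47.4 CPM in KO, and their part in the result was not tested.

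Averaged over the colon conditions the same 3 genes, Gbp5, Gbp9 and Gbp4, were lower in KO (-1.63 ± 0.37, -1.11 ± 0.26 and -1.47 ± 0.36, adjusted p = 0.0284, 0.0314 and 0.0346), 3 of 40 members where 3.88% of all genes were lower. The average includes the day 13 libraries, so these calls are not separate from those at day 13. It also joins estimates of unlike direction, because in untreated colon the members were higher in KO at a median of 0.98. The median over members was -0.42 and was -0.14 without WT day 13 replicate 1. No member was called after leaving out any 1 of untreated WT replicates 1, 2 and 3, WT day 7 replicate 2, KO day 7 replicates 1, 2 and 3, and KO day 13 replicates 1 and 3. Leaving out WT day 13 replicate 1 or 3 or KO day 13 replicate 2 left 1 of the 3 calls each, and leaving out untreated KO replicate 1 left 2. Without untreated KO replicate 2 none of the 3 was left and 1 other member was called, and without WT day 13 replicate 2 there were 9 calls. Again the share of all genes called in these fits is not given. Over all alternatives the largest adjusted p of Gbp5, Gbp9 and Gbp4 was 0.182, 0.217 and 0.201. All 6 macrophage markers (median -1.13), 2 of 3 leukocyte genes and 2 of 6 dendritic cell markers were also called lower in KO, and their part in the result was not tested.

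Between tumours of the genotypes no member passed in edgeR (smallest adjusted p = 0.942; 0% of all genes called), at a median of -0.89 in KO. At an unadjusted p under 0.05 there were 9 of 40 members (3.79% of all genes), DESeq2 called none (0.128% of all genes), and for no member did the libraries lie apart (lower in 5.08% of all genes). Except for Ifngr1, WT tumour replicate 2 was no higher than the highest KO tumour for any member. The median was -1.31 without it and -0.55 without WT tumour replicate 3.

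Against untreated WT colon, WT tumours had 36 of 41 members higher (27.6% of all genes were higher) and 2 lower, H2-Ob and Ifngr1 (21.2% of all genes were lower), with a median of 2.37. All 12 GTPases, 7 of 8 class II genes, 7 of 9 class I genes and all 5 immunoproteasome genes rose, and 32 of 41 members lay above all untreated WT libraries (33.2% of all genes). Gbp9 changed by 3.36 ± 0.49 (adjusted p = 2.64e-05), Gbp4 by 4.83 ± 0.76 (adjusted p = 5.14e-05), Gbp6 by 5.07 ± 0.85 (adjusted p = 9.94e-05) and Irgm2 by 3.32 ± 0.56 (adjusted p = 0.000108). These 4 calls held under all 14 alternatives, and leaving out single libraries gave 30 to 39 calls. H2-Ob was lost without WT tumour replicate 2 or 3 (adjusted p up to 0.0717). T cell markers were higher in 6 of 8 cases and macrophage markers in 5 of 6, while 3 of 6 B cell markers were lower. Smooth muscle markers summed to 92.9 to 169 CPM in WT tumours, against 4523 to 6482 CPM in untreated WT. The part of these cell types in the result was not tested.

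KO tumours had 4 members higher than untreated KO colon (26.4% of all genes were higher) and 4 lower (23.5% of all genes were lower), with a median of 0.21, and 5 of 41 lay above all untreated KO libraries (32.5% of all genes). Untreated KO, the reference here, was itself above untreated WT, with medians over all members of 0.30 to 1.16 per library. Relative to untreated WT these medians ran from 0.69 to 1.87 in KO tumours and from 0.61 to 3.01 in WT tumours. Gbp9 rose by 2.62 ± 0.48 (adjusted p = 0.000218), with Gbp4, Cd74 and H2-Q4 (1.94 ± 0.67, 1.66 ± 0.62 and 1.09 ± 0.44, adjusted p = 0.0223, 0.0326 and 0.0449). Ifngr1 fell by 1.28 ± 0.24 (adjusted p = 0.000309), H2-T23 by 1.63 ± 0.39 (adjusted p = 0.00199), Irf8 by 1.03 ± 0.28 (adjusted p = 0.00544) and H2-Ob by 2.37 ± 0.88 (adjusted p = 0.0323). Leaving out untreated KO replicate 2 or KO tumour replicate 1 left 4 calls, and leaving out untreated KO replicate 3 or KO tumour replicate 2 left 5, with Cd74, Gbp4 and H2-Q4 among the lost calls each time. H2-Ob was lost without untreated KO replicate 2 or KO tumour replicate 1 or 3, and its largest adjusted p over all alternatives was 0.365. In KO tumours all 6 macrophage markers were higher and 3 of 6 B cell markers lower, and T cell markers summed to 13.3 to 16.2 CPM against 17.2 to 30.8 CPM in WT tumours. Smooth muscle markers summed to 127 to 211 CPM in KO tumours, against 2825 to 3142 CPM in untreated KO. The part of these cell types in the result was not tested. The difference between the genotypes, a comparison added after the data were seen, had a median of -2.12 with 40 of 41 members below 0. No member passed in edgeR (smallest adjusted p = 0.294; 0% of all genes called), 28 had an unadjusted p under 0.05 (8.67% of all genes), DESeq2 called 8, each lower (0.478% of all genes), and 6 were called without WT tumour replicate 2.

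The cytokine itself was near the limit of detection. Ifng had 1 count over the 3 untreated WT libraries and 4 over the untreated KO and WT day 7 libraries each. KO day 7 and KO day 13 had 0 counts, which allows up to 0.0434 and 0.0405 CPM by counting error. Ifng was above 1 CPM in 3 libraries, WT day 13 replicate 1 (3.5 CPM) and WT tumours 1 and 3 (1.72 and 1.59 CPM). It is among the 36 members higher in WT tumours, with no fold given because of its counts in untreated colon. That call was lost without untreated WT replicate 1 or 3 and without the libraries whose sample numbers repeat (adjusted p up to 0.0678). Ifngr1, the ligand-binding receptor chain, stood at 454, 411 and 378 CPM in untreated WT and at 421, 377 and 268 CPM in untreated KO. In tumours it stood at 266, 177 and 132 CPM in WT and at 101, 170.4 and 167 CPM in KO, below every untreated library of its genotype. No test called it in treated colon, where it lay between 296.5 and 502 CPM.

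Among class II genes, Cd74 encodes the invariant chain that guides class II molecules to their peptide compartment. In untreated colon Cd74 stood at 124, 83 and 136 CPM in WT and at 231, 182 and 97.7 CPM in KO. At day 7 it stood at 236, 499 and 925 CPM in WT and at 105, 114 and 117 CPM in KO, without overlap, which in WT was an increase of 2.22 ± 0.62 (adjusted p = 0.0257). At day 13 the values were 547, 99.9 and 407 CPM in WT and 82.4, 111 and 309.9 CPM in KO, so the groups overlapped, with WT replicate 2 and KO replicate 3 out of step with the others. In tumours Cd74 stood at 1123, 365 and 1058 CPM in WT and at 550.3, 769.8 and 296 CPM in KO.

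H2-Aa, the alpha chain of I-A, followed the same course. It stood at 68.9, 47.5 and 72.8 CPM in untreated WT and at 123, 111 and 44.2 CPM in untreated KO. At day 7 it stood at 104, 194 and 357 CPM in WT and at 46.4, 54.4 and 63 CPM in KO, an increase in WT of 1.74 ± 0.56 (adjusted p = 0.0469). Ciita, the transactivator, stood at 15.4, 31.1 and 21.3 CPM in WT and at 5.82, 6.6 and 4.49 CPM in KO at day 7, against 7.23, 3.79 and 5.91 CPM in untreated WT and 20.6, 9.72 and 5.29 CPM in untreated KO. All WT day 7 libraries of both genes were above all KO day 7 libraries, but the KO against WT estimates, -1.97 ± 0.56 and -1.96 ± 0.57, did not pass (adjusted p = 0.0687 and 0.0704). In tumours H2-Aa ran from 136 to 319 CPM in WT and from 95.8 to 244 CPM in KO, and Ciita from 8.62 to 47.7 CPM and from 6.13 to 25.4 CPM, overlapping.

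H2-Ob, a chain of the class II modulator H2-O that B cells express, differed in course from the other class II genes. Its 3 highest libraries, WT day 7 replicate 2 (38.5 CPM) and WT day 13 replicates 3 and 1 (32.5 and 21.6 CPM), were also the 3 with the highest summed B cell markers (257, 219 and 138 CPM). In tumours it lay between 0.31 and 1.83 CPM, with B cell markers at 3.07 to 11.6 CPM, while the other 7 class II genes were higher in WT tumours than in untreated WT. Whether B cells account for H2-Ob was not tested.

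**Figure D4:**
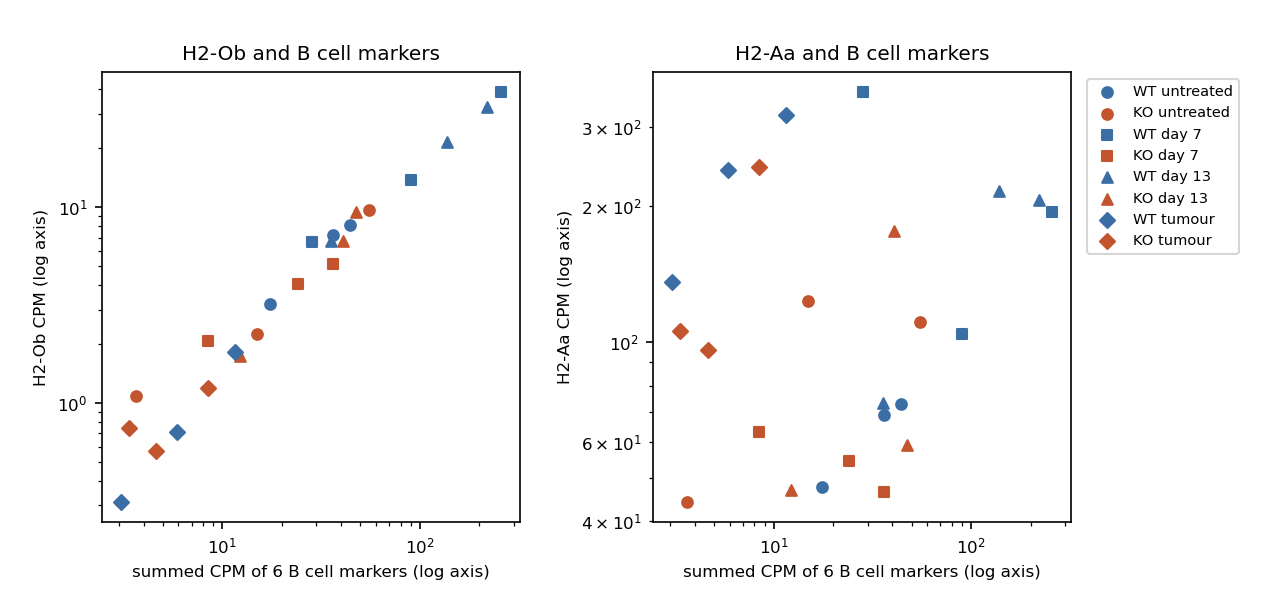
CPM of H2-Ob (left) and H2-Aa (right) against the summed CPM of 6 B cell markers, 1 point per library on log axes, coloured by genotype and shaped by condition. The tumours have low H2-Ob and few B cell transcripts, while H2-Aa lies between 95.8 and 319 CPM in the 6 tumours, whose B cell markers sum to 11.6 CPM or less.

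Class I genes are expressed by nearly all cells. H2-K1, a class I heavy chain, stood at 681, 682 and 1187 CPM in WT and at 551, 513 and 668 CPM in KO at day 7, against 708, 821 and 738 CPM in untreated WT and 926, 772 and 1174 CPM in untreated KO. It was called in no comparison. H2-D1, another heavy chain, stood at 545, 646 and 530.3 CPM in untreated WT, at 804, 883 and 1374 CPM in WT day 7 and at 1542, 848 and 1074 CPM in WT day 13, above all untreated libraries in both (0.78 ± 0.25 and 0.98 ± 0.25, adjusted p = 0.0473 and 0.0425). In KO, H2-D1 stood at 746, 594 and 1069 CPM untreated, at 606, 671 and 751 CPM at day 7 and at 860.1, 648 and 794 CPM at day 13, which overlapped.

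Nlrc5, the class I transactivator, stood at 2.42, 1.98 and 3.06 CPM in untreated WT and at 15.9, 19.9 and 36.7 CPM in WT day 7. Untreated KO gave 17.4, 3.93 and 22.1 CPM and KO day 7 gave 5, 5.66 and 8.31 CPM. Replicates 1 and 3 of untreated KO were thus within the WT day 7 range before any treatment. At day 13 Nlrc5 stood at 63.8, 7.56 and 19.7 CPM in WT and at 6.35, 5.04 and 9.66 CPM in KO, and in tumours at 86.7, 10.8 and 154 CPM in WT and at 66.3, 47.4 and 19.5 CPM in KO. The peptide transporter gene Tap1 was called higher in WT at day 7 and day 13 (1.58 ± 0.47 and 1.92 ± 0.47, adjusted p = 0.0329 and 0.0366), while its partner Tap2 and the loading factor gene Tapbp were called in WT tumours only. H2-T23 stood at 80.3, 75.8 and 85.4 CPM in untreated WT, at 168, 122 and 266 CPM in untreated KO and at 47.1, 71.2 and 51.4 CPM in KO day 7, so KO day 7 lay below every untreated library of either genotype.

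The immunoproteasome carries Psmb8, Psmb9 and Psmb10 in place of the constitutive catalytic subunits Psmb5, Psmb6 and Psmb7. Taken as the share of the 3 inducible subunits in the summed TPM (RSEM's abundance per transcript length) of all 6, the immunoproteasome made up 29%, 26.9% and 30.8% in untreated WT and 43.6%, 30.02% and 42.8% in untreated KO. At day 7 it made up 37.3%, 40.2% and 51.1% in WT and 24.8%, 27.6% and 30.9% in KO, without overlap, a difference of -15.1 percentage points (exact two-sided permutation p = 0.1, the smallest that 3 against 3 libraries allow). At day 13 the share was 44.7% ± 11.1 in WT and 36.2% ± 2.81 in KO (SD, n = 3 each), and in tumours 40.9% ± 16.9 and 30.1% ± 9.89, with overlapping libraries and exact permutation p-values of 0.3 and 0.4. In untreated colon the difference was 9.92 points (exact permutation p = 0.2). Leaving out WT replicate 1 changed the day 13 difference from -8.58 to -2.85 points. The tumour difference of -10.7 points became -3.79 when WT replicate 3 was left out and -20.1 when WT replicate 2 was.

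**Figure D5:**
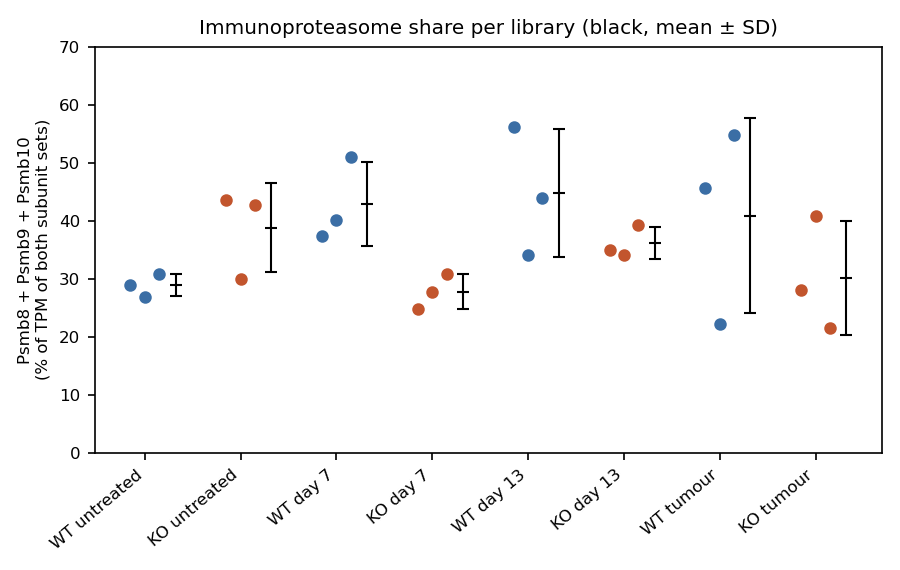
Share of Psmb8, Psmb9 and Psmb10 in the summed TPM of these and Psmb5, Psmb6 and Psmb7, 1 point per library (blue WT, orange KO), with mean ± SD in black. The day 7 groups lie apart, at 37.3% to 51.1% in WT and 24.8% to 30.9% in KO, and the tumour groups overlap.

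Psme1 and Psme2 encode the subunits of the PA28 activator of the proteasome. Psme1 stood at 66.5, 78.7 and 77.3 CPM in untreated WT and at 116, 98.3 and 149 CPM in untreated KO, without overlap. At day 7 it stood at 110.2, 99.4 and 132 CPM in WT and at 81.4, 84.5 and 100.2 CPM in KO. Psme2 was called higher in WT day 7 (131, 97.6 and 160 CPM against 70.2, 87.4 and 71.1 CPM untreated, 0.71 ± 0.21, adjusted p = 0.0372), and in KO it stood at 120, 98.2 and 156 CPM untreated and at 81.5, 94.7 and 116 CPM at day 7.

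Of the regulators, Irf1 stood at 101, 109 and 108 CPM in untreated WT and at 257, 124 and 174 CPM in untreated KO. At day 7 it stood at 181, 128 and 224 CPM in WT and at 119.5, 129 and 156 CPM in KO, and at day 13 at 375, 176 and 160.1 CPM in WT and at 184.5, 173 and 219.5 CPM in KO. Irf1 was called in WT tumours alone (277, 114 and 277 CPM, 1.07 ± 0.35, adjusted p = 0.0173), and lost there without untreated WT replicate 1 or WT tumour replicate 1 or 3 (adjusted p up to 0.0764). Irf8, a factor of myeloid cells and of the epithelial interferon response, was higher in WT day 7 (100.1, 75.6 and 113 CPM against 54.4, 54.2 and 63.3 CPM, 0.69 ± 0.22, adjusted p = 0.0459) and lower in KO tumours (34.6, 45.5 and 32.5 CPM against 88.1, 57.6 and 85.1 CPM in untreated KO). Socs1 stood at 1.43, 1.58 and 2.22 CPM in untreated WT and at 8.78, 8.24 and 19.5 CPM in WT day 7, and at 3.61, 2.85 and 8.6 CPM in KO day 7.

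The GTPases act in defence against intracellular microbes. Gbp2 stood at 21.4, 20.8 and 21.5 CPM in untreated WT, at 71.6, 70.1 and 105 CPM in WT day 7 and at 12.3, 28.3 and 17.7 CPM in KO day 7. In WT day 13 it stood at 416, 43.4 and 119.9 CPM and in KO day 13 at 28.4, 37.5 and 44.1 CPM, while WT tumours gave 205, 50 and 885 CPM and KO tumours 52.6, 169.5 and 51.8 CPM. Gbp2 thus separated the genotypes at day 7 but not at day 13 or in tumours, where WT replicate 2 lay below the highest KO library. Irgm1, which regulates the other immunity-related GTPases, stood at 72.5, 35.6 and 67.1 CPM in WT and at 29.4, 35.9 and 35.9 CPM in KO at day 7, overlapping through WT replicate 2. At day 13 it stood at 180.5, 48.1 and 61.9 CPM in WT and at 42.4, 38.5 and 44 CPM in KO, without overlap.

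Gbp4, Gbp5 and Gbp9, the genes called between the genotypes, differed as follows. At day 13 Gbp4 stood at 74.3, 7.56 and 18.5 CPM in WT and at 1.75, 3.54 and 2.89 CPM in KO, against 3.72, 4.38 and 3.69 CPM in untreated WT. Gbp5 stood at 65.3, 7.65 and 15.4 CPM in WT and at 2.18, 3.41 and 4.85 CPM in KO, against 3.03, 3.32 and 3.73 CPM. Gbp9 stood at 26.1, 5.77 and 14.1 CPM in WT and at 2.04, 5.31 and 5.2 CPM in KO. In KO tumours Gbp9 reached 39.5, 38.8 and 28.1 CPM, overlapping WT tumours (37.8, 35.6 and 89.7 CPM). Because Gbp4 and Gbp9 overlap over 23773 bases of the same strand, their counts are not separate measurements. Of the chromosome 11 genes whose promoters are printed above, Irgm2 stood at 159.7, 34.9 and 43.2 CPM in WT day 13 and at 32.2, 29.8 and 34 CPM in KO day 13, and Tgtp1 at 134, 20 and 707 CPM in WT tumours and at 52.4, 68.7 and 18.4 CPM in KO tumours.

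Ido1 had the largest estimate among the called members in WT day 7, WT day 13, KO day 7 and WT tumours. It stood at 0.82, 0.47 and 0.58 CPM in untreated WT, at 12.1, 1.41 and 16.6 CPM in WT day 7 and at 114, 6.1 and 26.7 CPM in WT day 13. In KO it stood at 10.2, 1.35 and 16.9 CPM untreated, at 0.43, 0.3 and 0.14 CPM at day 7 and at 1.5, 1.91 and 6.53 CPM at day 13. The untreated KO libraries thus spanned the WT day 7 range, and KO day 7 lay below every other group. Cd274 stood at 5.72, 5.45 and 5.64 CPM in untreated WT, at 40.5, 10.6 and 14.8 CPM in untreated KO, at 12.2, 15.4 and 21.9 CPM in WT day 7 and at 4.28, 4.77 and 4.11 CPM in KO day 7. At day 13 it stood at 59.7, 11.4 and 21.7 CPM in WT and at 10.2, 8.4 and 10.6 CPM in KO. In tumours Ido1 stood at 235, 11.8 and 288 CPM in WT and at 8.81, 29.5 and 7.76 CPM in KO.

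Other genes of the pathway were counted from lists chosen for their function. Of 18 genes of interferon-gamma signalling and its chemokine targets tested, 6 were higher in WT day 7 (8.52% of all genes were) and 8 in WT day 13 (3.21%), and 3 were lower in KO day 7 (4.07%). Il12rb1, a receptor chain for interleukin-12, rose by 3.32 ± 0.67 and 3.60 ± 0.66 in WT (adjusted p = 0.00512 and 0.011). In untreated WT it was near the limit of detection, at 0.043, 0.079 and 0.089 CPM, so the size of these changes is uncertain. Icam1, an adhesion molecule, rose by 2.0 ± 0.47 and 2.61 ± 0.48 (adjusted p = 0.0114 and 0.011). In KO day 7 the lower genes were Ifngr2, the second receptor chain (-0.66 ± 0.13, adjusted p = 0.00433), Xaf1 and Ifi47 (-1.51 ± 0.43 and -2.81 ± 0.87, adjusted p = 0.032 and 0.0467). In KO relative to WT at day 13 the list had 4 genes lower, Icam1, Cxcl10, Cxcl9 and Tgtp2 (1.86% of all genes were lower). By expression the WT mice of that comparison were all male and the KO mice all female. Cxcl9, a T cell chemokine, had the largest estimate of them (-6.72 ± 1.39, adjusted p = 0.0217), and stood at 109, 3.55 and 6.47 CPM in WT day 13 and at 0.0485, 0.636 and 0.391 CPM in KO, the WT level resting mostly on replicate 1. In tumours against untreated colon 14 of 18 were higher in WT (27.6% of all genes) and 6 of 18 in KO, a share near the 26.4% of all genes, with 1 lower in each and Icam1 at 4.08 ± 0.50 and 3.68 ± 0.49 (adjusted p = 4.88e-06 and 1.23e-05).

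Of 21 other antigen processing genes, 7 were higher in WT day 7 and 5 in WT day 13 (8.52% and 3.21% of all genes), and 2 were lower and 1 higher in KO day 7 (4.07% and 8.57%). Calr, a chaperone of class I assembly, was the higher one in KO (0.79 ± 0.23, adjusted p = 0.0372) and was also higher in WT day 7 (1.03 ± 0.23, adjusted p = 0.00976). The lower ones in KO were H2-T22 and the protease gene Ctss (-0.82 ± 0.18 and -0.72 ± 0.19, adjusted p = 0.00897 and 0.0255). Cd86, a costimulatory ligand, was lower in KO than in WT at day 13 (-1.96 ± 0.37, adjusted p = 0.0171), with H2-Q7 and H2-Q6, where 1.86% of all genes were lower. In WT tumours 12 of 21 were higher and 3 lower than in untreated colon (27.6% and 21.2% of all genes). In KO tumours 7 were higher and 4 lower, shares near those of all genes (26.4% and 23.5%).

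The type I interferon response shares targets with interferon-gamma, and 12 of its genes were followed beside the members. In KO day 7, 2 of 12 were called lower (4.07% of all genes). In WT at day 7 and day 13 edgeR called none, though all 12 estimates were above 0 with medians of 1.87 and 1.90, and 8 had an unadjusted p under 0.05 at each time. Against untreated colon 8 of 12 were higher in WT tumours (27.6% of all genes) and 6 of 12 lower in KO tumours (23.5%). Their sum ran from 160 to 246 CPM in KO tumours and was 742, 157 and 893 CPM in WT tumours, lowest in replicate 2. In untreated KO it was 397, 205 and 2031 CPM, so the lower values of KO day 7 and KO tumours are set against libraries that differ in it, and its part in the results for the members was not tested.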

How the data were processed

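The tools used were STAR 2.7.6a and RSEM 1.3.1, with the GRCm38 build, per the submitters' processing notes. The authors deposited, per the file headers, an expected count and a TPM for each of 55487 genes and library. An expected count is RSEM's estimate, which divides reads that fit several genes. Neither labels nor headers state the annotation release or strand setting. Symbols were found for 55141 identifiers. Expected counts were rounded and tested with edgeR 4.0.16 (R 4.3.3; TMM, minimum count 10, minimum total 15, robust quasi-likelihood F test) in a fit of 18 colon libraries (18102 genes), 6 tumour libraries (17245) or all 24 (19056), with Benjamini-Hochberg adjustment over all genes tested and a threshold of 0.05. Ifng passed the filter in the fit of all 24 only. Each SE beside an edgeR estimate is the absolute log2 fold change divided by the square root of F, not an error reported by the fit. DESeq2 1.42.0 was an alternative. The immunoproteasome share used the deposited TPM.

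Groups came from the labels, replicates are numbered by order only, and libraries of a group differed by more than sampling noise (chi-square per gene from 14.7 to 180.9 over 24 pairs). The method was tested on simulated data with the same dispersion for every gene and no library that stood apart. That test therefore cannot show how far calls that rest on single libraries hold. Members and gene lists were chosen with earlier results of these data known. All members are accounted for. Values per library are given for the 2 members of each role with the highest mean CPM and for 7 genes of regulation and output. Estimates are given for up to 4 called members of smallest p per comparison, not all of them with values per library. Some other values and estimates were chosen after they were seen. Counts of members without overlap and the promoter arrangements were also chosen after seeing the data.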

Additional observations from a re-analysis of the deposited data

How the results depend on the processing

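No fold change of a called member turned its sign under any alternative. For the up to 4 called members of smallest p per comparison, 278 of 415 values kept their side of the threshold. The other called members are not in that count. Of 234 counts of members, 153 stayed within 1.5 times, which includes counts of 0 that stayed at 0. Among main counts above 0, it was 5 of 15 in WT day 7 and 3 of 15 in WT day 13. KO day 7 had 6 of 15. KO against WT had 3 of 15 at day 13 and 8 of 26 over the mean of colon. Tumours against untreated colon had 14 of 14 in WT and 7 of 14 in KO. Counts changed as follows, given without the share of all genes called under each setting, which also changed. In untreated KO against WT, DESeq2 called 0.359% of all genes and edgeR 0.011%. At day 7 these shares were 13.6% and 0.00552%. With DESeq2 in place of edgeR, 30 members were called in WT day 7 and 31 in WT day 13 against untreated WT, 9 in KO day 7, 3 in untreated KO against WT, 17 at day 7, 14 at day 13, 9 over the mean of colon, 24 and 21 in the differences of response at day 7 and day 13, and 8 in the tumour difference. Without a filter there were 7, 7 and 2 in WT day 7, WT day 13 and KO day 7, 1 in KO against WT at day 13, 1 over the mean and 4 in KO tumours. With the Y-linked covariate there were 0, 7 and 1 in WT day 7, WT day 13 and KO day 7, and 0 in KO against WT at day 13. With all 24 libraries in the fit there were 11 in WT day 7, 8 in WT day 13 and 1 in KO against WT at day 7. Without the 4 libraries whose sample numbers repeat there were 3 in WT day 7, 0 in WT day 13, 1 in KO against WT at day 13, 0 over the mean and 4 in KO tumours. With the libraries of squamous keratins left out, chosen after seeing the data, there were 7 in WT day 13, 0 in KO against WT at day 13, 0 over the mean and 5 in KO tumours. With only the groups compared there were 0 in WT day 13 and 0 in KO against WT at day 13. The cause was not tested. Leaving out 1 library gave 1 to 14 members in WT day 7, 0 to 32 in WT day 13, 2 to 10 in KO day 7, 0 to 5 in KO against WT at day 7, 0 to 17 at day 13, 0 to 9 over the mean, 0 to 5 and 0 to 22 in the differences of response at day 7 and day 13, 30 to 39 in WT tumours, 4 to 9 in KO tumours and 0 to 6 in the tumour difference. For the immunoproteasome share it gave 7.51 to 14.3 points untreated, -17.9 to -11 at day 7, -13.9 to -2.85 at day 13 and -20.1 to -3.79 in tumours. No paired analysis was possible because replicate numbers follow only the order of the samples. Most calls in colon were lost when some single library was left out, except H2-T23 in KO day 7 and Nlrc5 in WT day 7, and 3 libraries a group limit what low genes such as Ifng can show.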
